A study of Vitis vinifera with 60 samples.

Results

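The gene rows described here are those of the 2 stilbene synthase clusters of grapevine (Vitis vinifera), on chromosomes 16 and 10, and of the regulators MYB14 and MYB15. They were chosen by identifier, with earlier results of these data known. All rows from VIT_16s0100g00750 to VIT_16s0100g01200 and from VIT_10s0042g00840 to VIT_10s0042g00930 were taken, together with VIT_07s0005g03340 (MYB14) and VIT_05s0049g01020 (MYB15). This gave 51 rows of the 29287 in the table, of which 39 lie in the chromosome 16 cluster and 10 in the chromosome 10 cluster. The names come from this choice: of the table's identifiers, 0 matched the RefSeq gene table used, so that whether each single row encodes a stilbene synthase could not be checked.

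Stilbene synthase joins coumaroyl-CoA, a product of the phenylpropanoid pathway, with malonyl-CoA to form resveratrol, the parent compound of the grapevine stilbenes. Chalcone synthase, from which stilbene synthases are thought to have arisen, uses the same substrates for the first step towards flavonoids. In grapevine the stilbene synthases form a large family of closely similar tandem copies. Stilbenes act as antifungal phytoalexins that leaves and berries make after infection, ultraviolet light or wounding, and they also accumulate in healthy berries during ripening, to an extent that depends on the cultivar. MYB14 and MYB15 are R2R3-MYB transcription factors known in grapevine to activate stilbene synthase promoters.

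RNA came from whole berries without their seeds of 5 white-skinned cultivars, Garganega, Glera, Moscato bianco, Passerina and Vermentino, which shared 1 vineyard and the 2011 season. Each cultivar was taken at 4 stages: pea-sized berries (Pea), berries starting to touch (Touch), soft berries (Soft) and harvest-ripe berries (Harv). The labels give 3 libraries for each of the 20 combinations, 60 in all, and do not say whether these came from separate vines. No treatment or infection is named in the labels, and the tissue label could not be checked against marker genes without gene names.

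The deposited table holds 1 value for each cultivar and stage, the authors' mean in FPKM (fragment counts normalised to transcript length and library size). The spread between libraries and the sequencing depth are therefore unknown, and the 5 cultivars serve as the replicates of a stage. The FPKM of a column added up to between 770169 and 1062816, a total that does not measure depth. In bulk tissue, fewer cells that express a gene and less of its RNA per cell cannot be told apart. Stilbene synthase copies are alike in sequence, and how fragments that match several copies were counted is not given in the sources used here. The rows of a cluster are therefore not independent measurements, and the level of a single row is uncertain.

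The summed FPKM of the chromosome 16 cluster was highest at harvest, in Vermentino and Moscato bianco, whereas that of chromosome 10 was highest in Moscato bianco at Pea, with 98.1 FPKM, and at Harv, with 94.4 FPKM. From Soft to Harv, 41 of the 49 cluster rows were higher in all 5 cultivars and 0 were lower in all 5 (19.3% and 24.5% of all rows tested). Of the 42 cluster rows tested, 14 rose, all on chromosome 16, against 2.05% of all rows tested, and 0 fell, against 5.15%. Without the rows that reached 1 FPKM only at Harv, 13 of 38 rose, against 1.93% of all rows tested in that way. Before harvest the cultivars went different ways, with high FPKM in Passerina at Touch and in Moscato bianco at Soft. MYB15 was higher and MYB14 lower in ripe than in green berries.

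**Figure D1:**
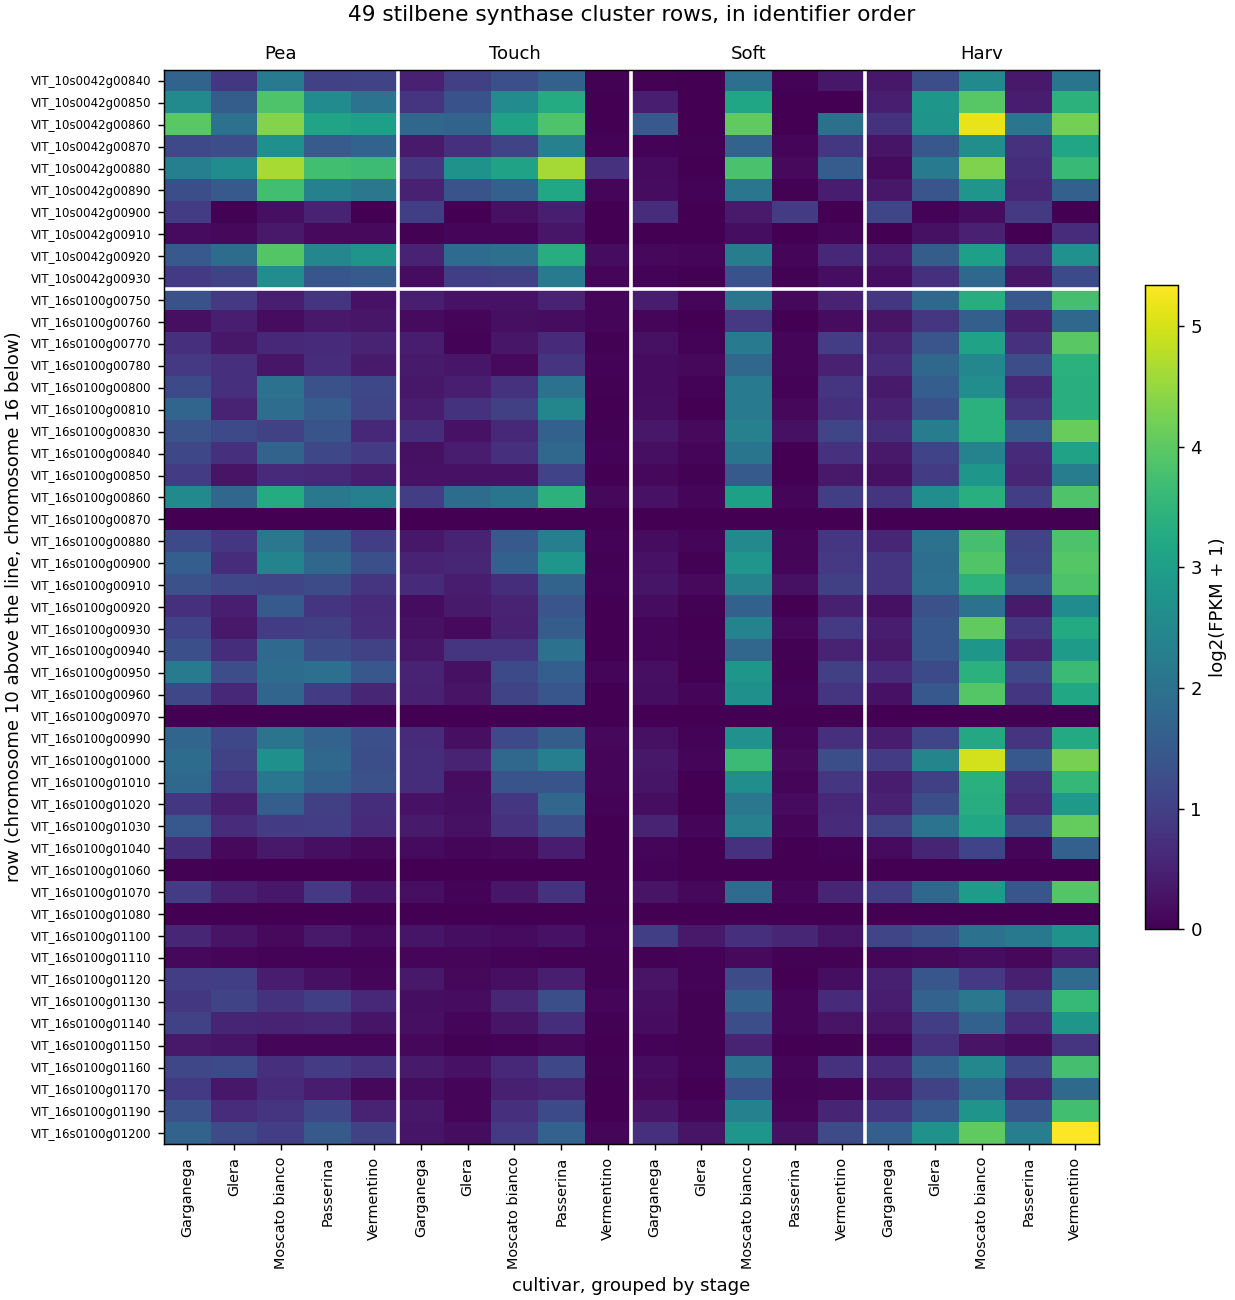
Level of each of the 49 cluster rows as log2(FPKM + 1), with rows in identifier order (the 10 of chromosome 10 above the line, the 39 of chromosome 16 below) and columns grouped by stage and, within a stage, by cultivar. The Harv columns of Moscato bianco and Vermentino are the brightest, and the Touch column of Vermentino and the Soft columns of Glera and Passerina are the darkest.

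MYB15 was the more strongly expressed of the regulators, with a mean over the 20 columns of 16.2 FPKM. At Pea it stood at 11.4 FPKM in Garganega, 5.52 in Glera, 8.79 in Moscato bianco, 3.45 in Passerina and 7.69 in Vermentino, and at Touch, in the same order, at 20.6, 6.72, 7.24, 7.02 and 9.16 FPKM. At Soft the values were 32.3, 18.6, 31.4, 8.01 and 13.5 FPKM, and at Harv 18.4, 22.8, 62.3, 11.5 and 17.5 FPKM. Garganega was highest at the first 3 stages and Moscato bianco at harvest, while Passerina was lowest at Pea, Soft and Harv.

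Means of MYB15 over cultivars were 7.36 ± 3.04 FPKM at Pea, 10.1 ± 5.92 at Touch, 20.8 ± 10.8 at Soft and 26.5 ± 20.4 at Harv (SD, n = 5 cultivars). Stages were compared with limma on log2(FPKM + 1), in 1 model of all columns with stage and cultivar as terms, and p-values were adjusted over all 20833 rows that reached 1 FPKM in a column. A row was called, and is said to have risen or fallen, when the adjusted p was under 0.05 and the change at least 2-fold on this scale. Between the mean of Pea and Touch and the mean of Soft and Harv, termed green and ripe below, MYB15 rose by 1.24 (SE 0.22, adjusted p = 9.48e-05), although without Moscato bianco the change was 0.97 (adjusted p = 0.000300), short of 2-fold. In all rows tested 26% were called in this comparison, 4.77% higher and 21.3% lower. From Touch to Soft MYB15 was higher in 5 of 5 cultivars by 0.92 (SE 0.31, adjusted p = 0.0171), short of the 2-fold limit. The changes from Pea to Touch (0.37, SE 0.31, adjusted p = 0.380) and from Soft to Harv (0.26, SE 0.31, adjusted p = 0.561) did not pass the test.

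MYB14 was low throughout, with at most 4.18 FPKM and 8 of 20 values under 1 FPKM. At Pea it stood at 2.07 FPKM in Garganega, 0.370 in Glera, 3.17 in Moscato bianco, 2.39 in Passerina and 4.18 in Vermentino, and at Touch, in that order, at 3.10, 0.796, 2.77, 2.62 and 1.60 FPKM. At Soft it stood at 1.06, 0.0654, 0.363, 0.385 and 0.719 FPKM, and at Harv at 1.44, 0.120, 0.360, 1.33 and 1.21 FPKM. Glera was lowest at every stage, and Garganega was highest from Touch onwards. Soft values were below Touch values within each cultivar, although the groups overlap through the low Touch value of Glera.

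From Touch to Soft, MYB14 fell by 1.04 on the log2(FPKM + 1) scale (SE 0.21, adjusted p = 0.000613), with lower values in 5 of 5 cultivars. In this comparison 18.8% of all rows tested were called, 3.59% higher and 15.2% lower, and the median change over all rows was -0.31. Relative to that median MYB14 changed by -0.73 and MYB15 by 1.24. With columns scaled to equal medians, which moved the median of all rows to 0.07, the change of MYB14 was -0.78 (adjusted p = 0.00489) and under the 2-fold limit, while MYB15 passed it with 1.42 (adjusted p = 0.00125). The 2-fold limit was also missed by MYB14 without Moscato bianco (-0.93, adjusted p = 0.00309) and without Passerina (-0.95, adjusted p = 0.00754). Between green and ripe berries, MYB14 was lower by 0.92 (SE 0.15, adjusted p = 4.44e-05). The changes from Pea to Touch (-0.05, SE 0.21, adjusted p = 0.895) and from Soft to Harv (0.29, SE 0.21, adjusted p = 0.316) did not pass the test.

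**Figure D2:**
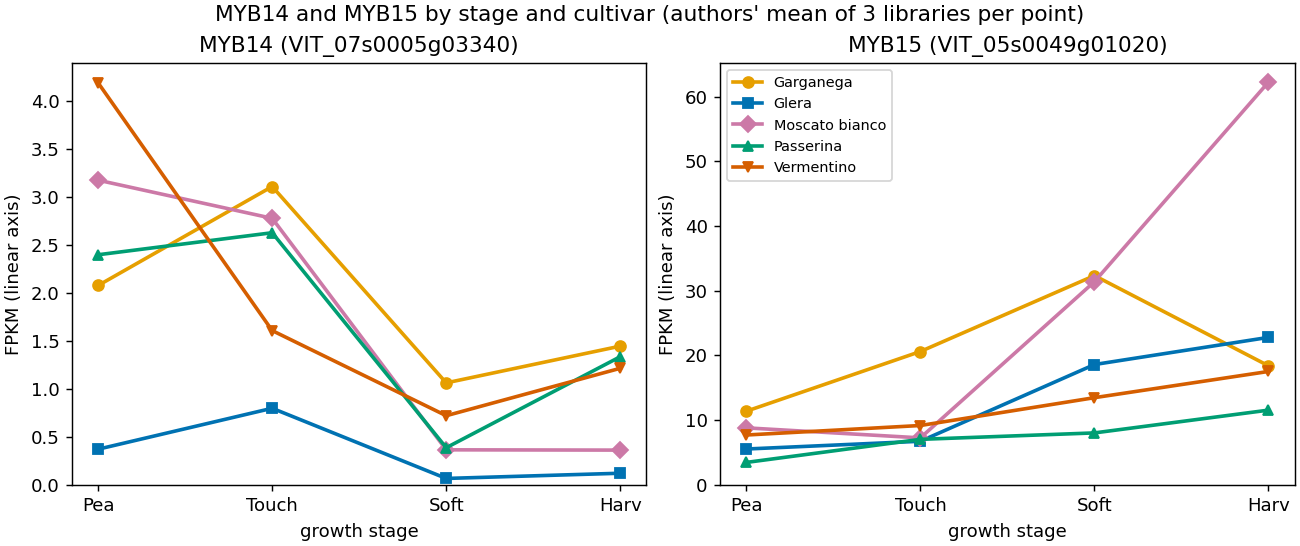
FPKM of MYB14 (left) and MYB15 (right) on linear axes by growth stage, with 1 point for each cultivar and stage, the authors' mean of 3 libraries. MYB14 stands lower at Soft than at Touch in all 5 cultivars, and the highest MYB15 point, Moscato bianco at Harv, is at 62.3 FPKM where the next, Glera, is at 22.8 FPKM.

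The rows outside the clusters whose profiles were most like those of the regulators over the 20 columns were searched among 13891 rows with at least 10 FPKM in a column. VIT_18s0001g03810 (Pearson r = 0.87) and VIT_06s0004g03540 (r = 0.86) were most like MYB14. VIT_05s0094g00490 and VIT_08s0007g02350 (both r = 0.83) were most like MYB15. The columns share cultivars and stages, so these values describe likeness only.

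Of the 49 cluster rows, 42 reached 1 FPKM in a column and were tested, 33 on chromosome 16 and 9 on chromosome 10. Of these, 4 reached 1 FPKM only at Harv, and so could enter only by being high there. VIT_16s0100g00870, VIT_16s0100g00970 and VIT_16s0100g01080 were listed at 0 in all columns, and the other 4 rows that were not tested reached at most 0.758 FPKM. The row means of the tested cluster rows over the 20 columns ran from 0.323 to 8.01 FPKM, with a median of 1.75 FPKM against 10.2 FPKM for all rows tested. Of the 42, 0 had a mean above the latter value. Even so, 23 of the 49 rows reached 10 FPKM in a column. The column with the highest value was Vermentino at Harv for 31 of the 46 rows with any value, Moscato bianco at Harv for 9 and Moscato bianco at Pea for 4.

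In pea-sized berries both clusters were expressed, and the 10 rows of chromosome 10 held 39.5% to 62.5% of their summed FPKM. The chromosome 16 rows summed to 49.3 FPKM in Garganega, 24.8 in Glera, 58.9 in Moscato bianco, 41.2 in Passerina and 26.2 in Vermentino, and the chromosome 10 rows, in that order, to 32.2, 17.9, 98.1, 38.6 and 36.3 FPKM. By these sums, Moscato bianco was highest and Glera lowest in both clusters. Row by row the order was less uniform. Of 36 chromosome 16 rows with a value, Garganega was highest for 18 and Moscato bianco for 13, and Glera was lowest for 17. Of the 10 chromosome 10 rows, Moscato bianco was highest for 9, while Garganega was lowest for 5 and Glera for 4. The summed FPKM of both clusters was 3.68 times higher in Moscato bianco than in Glera.

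The most abundant rows at Pea belonged to chromosome 10. VIT_10s0042g00860, with the highest mean of all cluster rows, stood at 14.7 FPKM in Garganega, 2.99 in Glera, 19.4 in Moscato bianco, 7.70 in Passerina and 7.11 in Vermentino. VIT_10s0042g00880 stood at 3.92, 5.04, 24.1, 12.2 and 11.7 FPKM in the same order. Both were highest in Moscato bianco. On chromosome 16, VIT_16s0100g00860 was the strongest at this stage in each cultivar, at 4.77, 2.39, 8.76, 3.40 and 3.98 FPKM.

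From Pea to Touch, 4 cultivars went down and Passerina went up. Lower values at Touch were found for 45 of the 49 rows in Garganega, 39 in Glera, 41 in Moscato bianco and 44 in Vermentino, but for 10 in Passerina, where 35 were higher. Among all 20833 rows tested, between 9679 and 10201 were lower in each cultivar, and 10964 were higher in Passerina. At Touch, both clusters together summed to 17.6 FPKM in Garganega, 26.4 in Glera, 54.9 in Moscato bianco, 141 in Passerina and 2.03 in Vermentino. The sum in Vermentino was 30.8 times lower than at Pea and that in Passerina 1.76 times higher, and at Touch they differed by 69.4-fold. Among 45 rows with a value at Touch, Passerina was highest for 41 and Vermentino lowest for 43.

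The rows named above show the same split. VIT_10s0042g00880 stood at 0.792 FPKM in Garganega, 5.69 in Glera, 7.42 in Moscato bianco, 23.6 in Passerina and 0.697 in Vermentino at Touch. VIT_10s0042g00860 stood at 2.44, 2.26, 7.40 and 13.6 FPKM in the first 4 of these and was listed at 0 in Vermentino. VIT_16s0100g00860 stood at 0.955, 2.68, 3.23, 9.79 and 0.0863 FPKM. In all 3 rows Passerina was highest and Vermentino lowest.

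No cluster row was called from Pea to Touch with limma, where 7.91% of all rows were called, and 0 of the 42 had an unadjusted p under 0.05, against 42.6% of all rows. The estimated changes were negative for all 42 rows tested, from -1.21 to -0.002, and their median was -0.43 against 0.02 over all rows. Without Passerina 3 rows were called lower, a call that 5.77% of all rows had in the model of all columns. A fit of the Pea and Touch columns alone called VIT_16s0100g00950 lower, by 1.02 (adjusted p = 0.00922, against 0.138 in the model of all columns).

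From Touch to Soft the cultivars again divided, in another way. Higher values at Soft were found for 45 of the 49 rows in Moscato bianco and 43 in Vermentino, with 0 lower in either. Lower values were found for 43 rows in Passerina, 40 in Garganega and 40 in Glera. Among all 20833 rows tested, 14960, 14469 and 15464 were lower in the same order. In Moscato bianco 5543 of all rows were higher, and in Vermentino 5230. The median change of the 42 tested cluster rows was -0.19 in Garganega and -0.20 in Glera, against -0.27 and -0.30 over all rows. In Passerina it was -1.45 against -0.35. No cluster row was called by limma in this comparison (0 with an unadjusted p under 0.05, against 64% of all rows), and the median change of the 42 rows was 0.03 against -0.31 over all rows. Since the sign differed between cultivars, a mean over them says little here. Each cultivar has 1 value at a stage, so the difference between cultivars was not tested.

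At Soft, the chromosome 16 rows summed to 123 FPKM in Moscato bianco, 20.9 in Vermentino, 7.07 in Garganega, 2.47 in Passerina and 1.78 in Glera. The chromosome 10 rows summed to 50.6, 7.01, 3.19, 1.21 and 0.137 FPKM in the same order. In Passerina the sum of both clusters was 38.2 times lower than at Touch, and in Vermentino 13.7 times higher. Moscato bianco was the highest cultivar for 43 of the 46 rows with a value at Soft, and its sum was 90.5 times that of Glera, the lowest.

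Among the chromosome 16 rows with the highest means, VIT_16s0100g01000 stood at Soft at 0.265 FPKM in Garganega, 0.0699 in Glera, 11.4 in Moscato bianco, 0.10 in Passerina and 1.42 in Vermentino. VIT_16s0100g01200 stood at 0.658, 0.224, 6.01, 0.174 and 1.35 FPKM, and VIT_16s0100g00860 at 0.198, 0.0503, 7.20, 0.0560 and 0.988 FPKM. Only the Moscato bianco value exceeded 2 FPKM in each of these 3 rows. VIT_10s0042g00860 was listed at 0 in Glera and Passerina and stood at 15.5 FPKM in Moscato bianco, 2.90 in Vermentino and 1.81 in Garganega. VIT_10s0042g00880 was listed at 0 in Glera and stood at 13.0 FPKM in Moscato bianco, 1.95 in Vermentino, 0.108 in Garganega and 0.102 in Passerina.

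**Figure D3:**
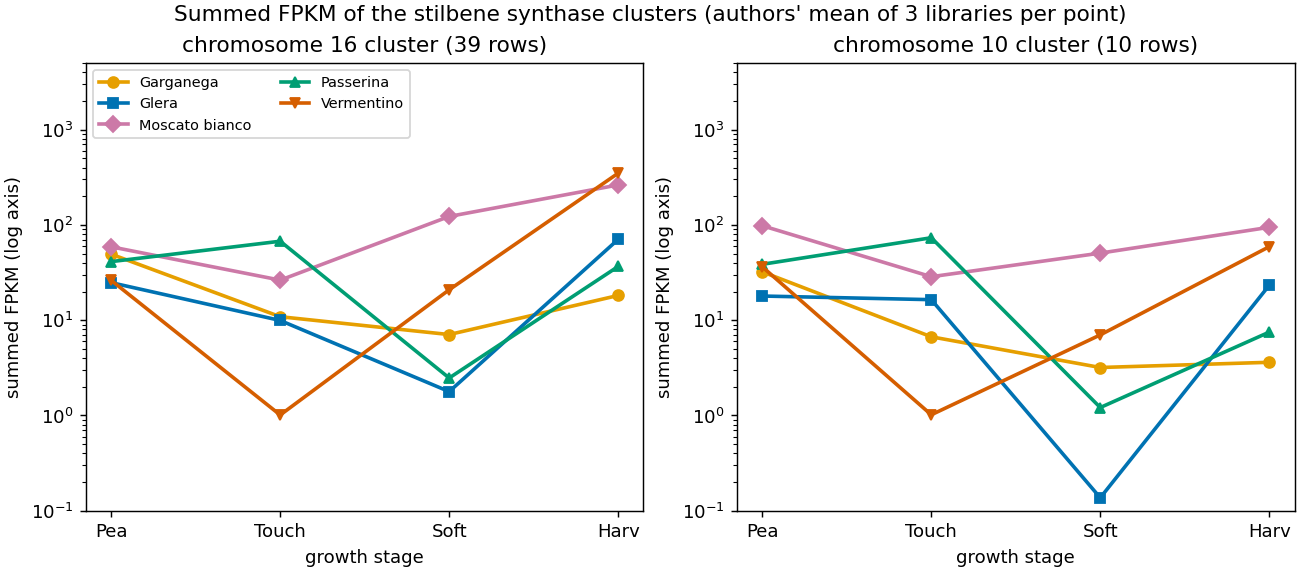
Summed FPKM of the chromosome 16 cluster (left, 39 rows) and the chromosome 10 cluster (right, 10 rows) by growth stage on log axes, with 1 line for each cultivar and the authors' mean of 3 libraries at each point. Lines cross between each stage and the next and all go up from Soft to Harv, where chromosome 16 reaches 349 FPKM in Vermentino and 18.2 FPKM in Garganega.

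From Soft to Harv the clusters went up in every cultivar, by very different amounts. The sum of both clusters at Harv was 408 FPKM in Vermentino, 357 in Moscato bianco, 93.8 in Glera, 44.1 in Passerina and 21.8 in Garganega. It was 49 times the Soft value in Glera, 14.6 times in Vermentino and 12 times in Passerina, but 2.13 times in Garganega and 2.06 times in Moscato bianco. Glera and Passerina started from the lowest Soft values, and Moscato bianco from the highest.

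Of the 42 cluster rows tested, 39 were higher at Harv in all 5 cultivars, and the test called 14, each higher. The 4 rows that entered through Harv alone had to be high there, and 3 of them were among the 39 and 1 among the 14. In a fit without such rows, chosen after seeing the data, 36 of 38 were higher in all 5 cultivars, against 18.8% of all rows, and 13 were called higher. At an unadjusted p under 0.05, 34 of the 42 were higher, against 21.2% of all rows, and the median change was 1.18 against -0.02 over all rows. On chromosome 16, with all 14 calls, the median change was 1.23 over 33 rows. The 9 rows of chromosome 10 had a median change of 1.06 and 0 calls (3 with an unadjusted p under 0.05), and whether the clusters differ was not tested. Among 102 tested rows that bear the same scaffold numbers but lie outside the clusters, 2 were called higher and 0 lower, with a median change of 0.01.

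VIT_16s0100g01200 had the largest change of all cluster rows. It went to 2.04 FPKM in Garganega, 5.66 in Glera, 15.4 in Moscato bianco, 3.91 in Passerina and 39.5 in Vermentino, a log2 change of 2.14 (SE 0.57, adjusted p = 0.00931). The call was lost without Glera (adjusted p = 0.0537). Its earlier values, in the same order, were 2.23, 1.37, 0.957, 1.86 and 1.04 FPKM at Pea and 0.237, 0.134, 0.873, 2.22 and 0.0591 FPKM at Touch. The 39.5 FPKM of Vermentino at harvest is the highest value of any cluster row. Harv and Soft values overlapped between cultivars, since Moscato bianco at Soft stood above Garganega, Glera and Passerina at Harv.

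VIT_16s0100g01000, the chromosome 16 row with the highest mean, rose by 1.71 (SE 0.58, adjusted p = 0.0316), to 0.916 FPKM in Garganega, 4.37 in Glera, 30.3 in Moscato bianco, 1.79 in Passerina and 18.0 in Vermentino. It had stood at 2.72, 1.07, 5.37, 2.43 and 1.44 FPKM at Pea and at 0.628, 0.439, 2.50, 3.92 and 0.0700 FPKM at Touch. In Garganega and Passerina the harvest value was thus below that at Pea. The call was lost without Glera, Moscato bianco or Vermentino (adjusted p = 0.138, 0.0524 and 0.106).

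The remaining 2 called rows among the most abundant were highest in Vermentino at harvest, with Moscato bianco close behind. VIT_16s0100g00900 rose by 1.53 (SE 0.56, adjusted p = 0.0453), from 0.203, 0.0219, 5.91, 0.0739 and 0.846 FPKM to 0.737, 2.80, 13.8, 1.23 and 14.3 FPKM, with cultivars in alphabetical order as above. VIT_16s0100g00880 rose by 1.51 (SE 0.51, adjusted p = 0.0327), from 0.131, 0.0741, 4.74, 0.0569 and 0.807 FPKM to 0.485, 3.05, 12.7, 1.12 and 13.4 FPKM. At Pea they had stood at 2.01, 0.601, 4.30, 2.43 and 1.45 FPKM, and at 1.31, 0.803, 3.35, 1.85 and 1.0 FPKM. At Touch the values were 0.431, 0.485, 2.16, 5.86 and 0.0176 FPKM for the former and 0.278, 0.425, 1.81, 3.86 and 0.0343 FPKM for the latter, with Passerina highest in both. Both calls were lost without Glera, Moscato bianco or Vermentino (adjusted p = 0.160, 0.0836 and 0.143 for VIT_16s0100g00900, and 0.134, 0.0719 and 0.105 for VIT_16s0100g00880), and that of VIT_16s0100g00900 also without Garganega (adjusted p = 0.0589).

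The other abundant rows were also higher at Harv than at Soft but did not pass the test. VIT_16s0100g00860 stood at 0.780, 5.12, 9.22, 0.946 and 13.7 FPKM at Harv (log2 change 1.44, SE 0.63, adjusted p = 0.0900). VIT_16s0100g00950 went from 0.158, 0.00782, 6.13, 0.00247 and 1.0 FPKM to 0.566, 1.29, 9.59, 1.19 and 11.4 FPKM (1.19, SE 0.50, adjusted p = 0.0797), after 3.50, 1.41, 2.71, 2.88 and 1.72 FPKM at Pea and 0.434, 0.174, 1.29, 2.00 and 0.0673 FPKM at Touch. Both were higher at Harv in 5 of 5 cultivars.

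On chromosome 10, VIT_10s0042g00860 stood at 0.726 FPKM in Garganega, 5.82 in Glera, 35.0 in Moscato bianco, 3.26 in Passerina and 17.6 in Vermentino at Harv (log2 change 1.51, SE 0.74, adjusted p = 0.129). It was lower at Harv than at Soft in Garganega. VIT_10s0042g00880 stood at 0.109, 3.68, 18.8, 0.620 and 11.1 FPKM (1.06, SE 0.70, adjusted p = 0.262). Its Harv value in Moscato bianco was under its own Pea value.

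VIT_16s0100g01100, a row singled out after its values were seen, is one of the 4 that reached 1 FPKM only at Harv, so its change is given as a description. It stood at 0.478, 0.223, 0.0933, 0.285 and 0.118 FPKM at Pea, and at Harv at 1.18, 1.5, 2.98, 3.49 and 5.68 FPKM. From Soft, with 0.975, 0.285, 0.667, 0.490 and 0.229 FPKM, the estimated log2 change was 1.28 (SE 0.24). Its Soft and Harv values did not overlap, the only such case among the 42 cluster rows tested, against 5.94% of all rows. It was also higher at Soft than at Touch in all 5 cultivars, again as 1 of 42, against 10.2% of all rows.

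**Figure D4:**
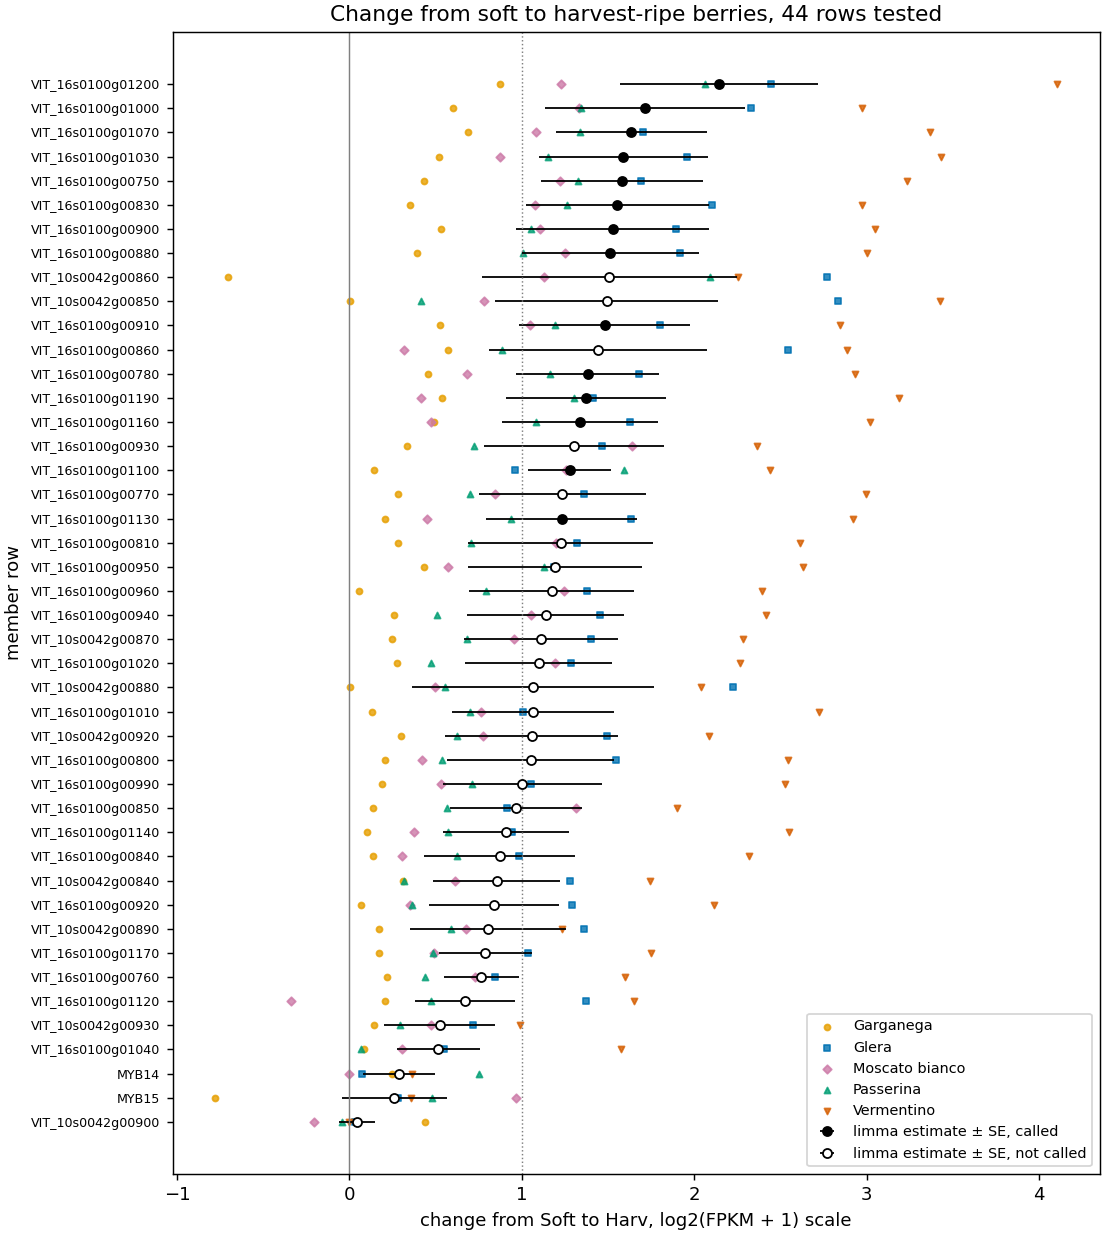
Change from Soft to Harv on the log2(FPKM + 1) scale for the 44 member rows tested, sorted by size, with coloured points for single cultivars and black circles with bars for the limma estimate ± SE (filled where called, the dotted line marking a 2-fold change). Vermentino lies furthest right in most rows and Garganega near 0, and VIT_16s0100g01200 has the largest estimate, 2.14.

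The number of called rows from Soft to Harv rested on single cultivars and on the scale. It was 1 without Glera, 2 without Vermentino, 9 without Moscato bianco, and 6 without Vermentino and Moscato bianco together. With columns scaled to equal medians 23 rows rose, with quantile normalization 30, and in none of the settings was a cluster row called lower from Soft to Harv. Without these changes 2.05% of all rows rose. The share of all rows called under each setting is not given here, so a general shift in calls cannot be told from one in the clusters.

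By median span, cultivars differed more in these rows than in most others, in the chromosome 16 cluster by more at each later stage. At Harv, 35 of the 42 tested cluster rows spanned at least 4-fold between the highest and the lowest cultivar on the log2(FPKM + 1) scale, against 7.86% of all rows. The number was 25 at Soft (7.8% of all rows), 12 at Touch (8.55%) and 5 at Pea (7.89%), and 4 rows entered only by a high Harv value. The 5 at Pea were all among the 9 chromosome 10 rows, and 0 of the 33 on chromosome 16 spanned 4-fold there. The median span of the 33 chromosome 16 rows was 0.83 log2 units at Pea, 1.41 at Touch, 2.15 at Soft and 2.95 at Harv, against 0.63 to 0.65 over all rows. The 9 chromosome 10 rows had no such order, with 2.29, 3.13, 2.07 and 2.60. The ratio of the highest to the lowest summed FPKM was not largest at harvest either, being 3.68 at Pea, 69.4 at Touch and 90.5 at Soft for both clusters. At Harv, Vermentino was highest for 31 and Moscato bianco for 13 of 45 rows with a value, and Garganega was lowest for 41. The harvest order by summed FPKM was Vermentino, Moscato bianco, Glera, Passerina and Garganega, an 18.7-fold ratio that has no replicate check.

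The regulators did not share this harvest order. At Harv, MYB15 was highest in Moscato bianco, but Glera and Garganega stood above Vermentino, which held the highest cluster sum. MYB14 was highest at Harv in Garganega, where the cluster sum was lowest. At Touch, Passerina had the highest cluster sum with 2.62 FPKM of MYB14 and 7.02 FPKM of MYB15, against 1.60 and 9.16 FPKM in Vermentino, where the sum was lowest. At Pea and Soft, Glera was lowest for both MYB14 and the cluster sum, whereas MYB15 was lowest in Passerina. The sum was highest in Moscato bianco at both stages, but MYB14 was highest in Vermentino at Pea and Garganega at Soft. MYB15 was highest in Garganega at both, at Soft with 32.3 FPKM against 31.4 FPKM in Moscato bianco. With 5 cultivars at a stage, no correlation was computed.

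The balance between the clusters differed between stages. Chromosome 10 rows held 39.5% of the FPKM of both clusters at Pea in Garganega, 42% in Glera, 62.5% in Moscato bianco, 48.4% in Passerina and 58.1% in Vermentino. At Harv they held 16.6%, 24.8%, 26.4%, 17.0% and 14.5% in the same order. All 5 Harv shares lay under all 5 Pea shares. In Moscato bianco the chromosome 10 sum was nearly equal at Pea and Harv (98.1 and 94.4 FPKM), while that of chromosome 16 was 4.46 times higher at Harv. In Vermentino the corresponding ratios of Harv to Pea were 1.63 and 13.3, and in Garganega the Harv sums were 8.90 and 2.71 times lower than at Pea.

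Between green and ripe berries, the test called 2 cluster rows, in opposite directions. VIT_16s0100g01200 rose by 1.17 (SE 0.40, adjusted p = 0.0163), and VIT_10s0042g00880 fell by 1.23 (SE 0.50, adjusted p = 0.0341). The median over all rows in this comparison was -0.34, relative to which the former changed by 1.5 and the latter by -0.90. With MYB15, this made 2 member rows higher and 1 lower, against 4.77% and 21.3% of all rows tested. With columns scaled to equal medians the split was 9 higher and 0 lower, and with quantile normalization 15 and 0, so that the fall of VIT_10s0042g00880 depended on the scale. Its call was also lost without Garganega, Glera or Passerina (adjusted p = 0.0988, 0.0993 and 0.197), and that of VIT_16s0100g01200 without Moscato bianco or Vermentino (adjusted p = 0.107 and 0.0778).

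Rows of the chromosome 16 cluster also differed by their place in the identifier order, a pattern looked for after the values were seen and given without a test. The limits of the stretches compared were also set after the values were seen, so a clean split between them is partly built in. In Passerina, all 18 tested rows from VIT_16s0100g00800 to VIT_16s0100g01020 had lower values at Harv than at Touch, with a median difference of -0.93 on the log2(FPKM + 1) scale. All 4 rows from VIT_16s0100g00750 to VIT_16s0100g00780 had higher values at Harv (median 0.34), and of the 11 tested from VIT_16s0100g01030 onwards 5 did and 6 did not. At Harv, all 11 of these last rows and all 4 of the first were lower in Moscato bianco than in Vermentino, with medians of -0.97 and -0.66, although VIT_16s0100g01170 differed by only -0.0060. In the middle stretch 6 of 18 were higher in Moscato bianco, and the summed FPKM was nearly equal, at 186 in Moscato bianco and 184 in Vermentino. In the last stretch it was 54.0 and 126 FPKM. Neighbouring copies may share fragments, and the part this has in the pattern was not tested.

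**Figure D5:**
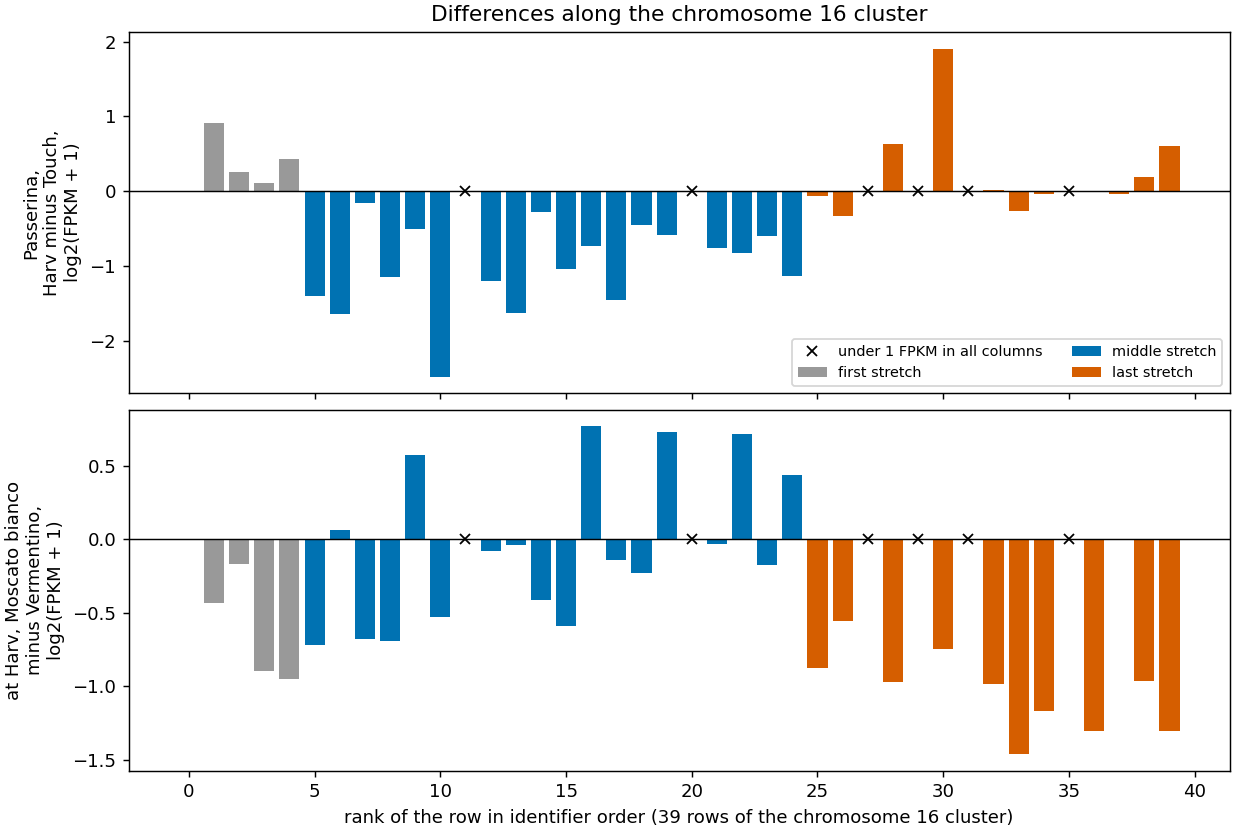
Difference on the log2(FPKM + 1) scale for each row of the chromosome 16 cluster by its rank in identifier order, between Harv and Touch in Passerina (upper) and between Moscato bianco and Vermentino at Harv (lower), with bars coloured by the 3 stretches and crosses for the 6 rows that stayed under 1 FPKM. In the upper panel all bars of the middle stretch point down, and in the lower panel those that point up all belong to the middle stretch. The limits of the stretches were set after the values were seen.

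VIT_10s0042g00900, also singled out after its values were seen, followed the cultivar rather than the stage. It stood at 0.601 to 1.17 FPKM in Garganega and at 0.371 to 0.896 FPKM in Passerina at all 4 stages, was listed at 0 in Vermentino throughout, and reached at most 0.309 FPKM in Moscato bianco and 0.0360 FPKM in Glera. From Soft to Harv it changed by 0.04 (SE 0.10, adjusted p = 0.796). Its neighbours on either side, VIT_10s0042g00890 and VIT_10s0042g00910, had their highest values in Moscato bianco at Pea (12.1 FPKM) and in Vermentino at Harv (0.591 FPKM).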

How the data were processed

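The members and lists were chosen with earlier results of these data known. The authors deposited 1 table of FPKM, by its name the means of the libraries of a group, with 1 column for each of 20 combinations of cultivar and stage. All columns were matched by name and 0 were left over. The submitters' processing notes name Cufflinks 2.0.2 and TopHat2 2.0.6 but no roles. Neither genome build nor annotation is given in the sources used here. Per the labels' protocols, the TruSeq libraries were non-directional, so overlapping and antisense genes cannot be told apart.

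The 20833 rows that reached 1 FPKM in any column were taken as log2(FPKM + 1) and tested with limma 3.58.1 (moderated test with trend) in R 4.3.3, with stage and cultivar as terms, 12 residual degrees of freedom and Benjamini-Hochberg adjustment. A change understates the fold of rows with low FPKM. The p-values rest on the spread between cultivars, not libraries. The model was tested on simulated data, with changes planted only in rows of higher mean than any cluster row. The simulation therefore does not show how well changes in rows this low are found. Described in full were MYB14, MYB15, the 6 chromosome 16 and 2 chromosome 10 rows with the highest mean, and any row called from Pea to Touch. Alternatives changed the pseudocount, filter, scale, model and cultivars. Other enzymes of the pathway were not analysed here, since 0 identifiers matched one of the 29591 RefSeq genes (assembly ASM3070453v1), and no sequences are given.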

Additional observations from a re-analysis of the deposited data

Results flagged for a closer look

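The 5 cultivars at a stage were searched for a value far from the rest in 52 sets. These were the 10 rows described in full and the 3 cluster sums at each stage. A value counted when its gap to the next exceeded 0.71 of the range, in FPKM without logarithms. Of the 52 sets, 14 held one. A rate of 1 set in 20 would give 2.6, but whether this rate holds for FPKM values was not tested. The search was not repeated on the log2(FPKM + 1) scale, so how far the count depends on the scale is unknown. The sets are not independent, since the rows share cultivars and possibly fragments. The cluster sums also contain the cluster rows searched, and the sum of both clusters contains the sum of each. Those rows were picked by their mean over all columns, to which high values in Moscato bianco contribute. Moscato bianco was the outlying cultivar in 13 of the 14.

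At Soft, Moscato bianco stood above the other cultivars in all 8 cluster rows described in full. Its values were 11.4 FPKM for VIT_16s0100g01000, 6.01 FPKM for VIT_16s0100g01200, 7.20 FPKM for VIT_16s0100g00860, 5.91 FPKM for VIT_16s0100g00900, 4.74 FPKM for VIT_16s0100g00880 and 6.13 FPKM for VIT_16s0100g00950. On chromosome 10 they were 15.5 FPKM for VIT_10s0042g00860 and 13.0 FPKM for VIT_10s0042g00880. The sums at Soft were 123 FPKM for chromosome 16, 50.6 FPKM for chromosome 10 and 173 FPKM for both, where the next cultivar, Vermentino, had 20.9, 7.01 and 27.9 FPKM. At Pea, the chromosome 10 sum of Moscato bianco, 98.1 FPKM, lay above 38.6 FPKM in Passerina.

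MYB15 was outlying in Garganega at Touch, at 20.6 FPKM against 9.16 FPKM in the next cultivar. In Moscato bianco at Harv it stood at 62.3 FPKM against 22.8 FPKM in Glera.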

How the results depend on the processing

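No paired analysis was possible because the columns are means that carry no replicate numbers. The cultivar served as the block of the model, so stages were compared within cultivars. Of 626 values of single rows under other settings, 547 kept their direction and side of the threshold, 43 lost a call, 11 gained one and 25 changed sign. Alternatives were planned, except leaving out Vermentino and Moscato bianco together, or the rows that reached 1 FPKM only at Harv, which were chosen after seeing the data.

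Member rows called from Soft to Harv numbered 14. They were 26 with a pseudocount of 0.1 FPKM, 1 with 5 FPKM, 30 with quantile normalization, 23 with equal medians, 9 without the cultivar term, 0 in a test against a 2-fold change and 6 without Vermentino and Moscato bianco, and 1 to 16 with 1 cultivar left out. From green to ripe, 3 rows were called. They were 11 and 0 with pseudocounts of 0.1 and 5 FPKM, 15 with quantile normalization, 9 with equal medians, 0 against a 2-fold change, 6 without both cultivars, and 2 to 8 with 1 left out. From Touch to Soft 1 row, MYB14, was called. They were 2 and 0 with pseudocounts of 0.1 and 5 FPKM, 0 with a filter of 5 FPKM, 0 against a 2-fold change, 7 without both cultivars, all lower, and 0 to 3 with 1 left out. From Pea to Touch, 0 were called, and 1 in the fit of these stages alone and 0 to 3 with 1 cultivar left out. The cause was not tested. Under the settings first described, 7.2% of all rows were called from Soft to Harv and 26% from green to ripe. From Touch to Soft 18.8% of all rows were called, with 15.2% of all rows called lower. From Pea to Touch 7.91% of all rows were called. The shares of all rows called under the other settings are not given here. These counts therefore show only how the calls moved with the setting.

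Signs changed only for values that had not passed the test. From Pea to Touch, MYB14 changed by 0.020 with a pseudocount of 0.1 FPKM, 0.11 with quantile normalization, and -0.16 to 0.19 with 1 cultivar left out. From Touch to Soft, a pseudocount of 0.1 FPKM gave -0.34 for VIT_16s0100g01000 and -0.37 for VIT_16s0100g00950. Equal medians gave 0.0083 for VIT_16s0100g00880, and quantile normalization 0.14 for that row and 0.040 for VIT_16s0100g00900. With 1 cultivar left out the ranges were -0.44 to 0.55 for VIT_16s0100g01000, -0.30 to 0.51 for VIT_16s0100g00950, -0.65 to 0.30 for VIT_16s0100g00900, -0.50 to 0.31 for VIT_16s0100g00880 and -1.22 to 0.23 for VIT_10s0042g00860. From green to ripe, VIT_16s0100g00950 changed by -0.12 with a pseudocount of 0.1 FPKM, VIT_10s0042g00860 by 0.048 with quantile normalization and 0.0043 with equal medians, and VIT_16s0100g00860 by 0.11 with quantile normalization. With 1 cultivar left out the ranges were -0.13 to 0.72 for VIT_16s0100g00900, -0.18 to 0.52 for VIT_16s0100g00950, -0.86 to 0.012 for VIT_16s0100g00860 and -0.94 to 0.067 for VIT_10s0042g00860. Depth and library spread are unknown, so values near 0 FPKM have no error here.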
